A study of Mus musculus with 20 samples.

Results

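The nuclear genes for the subunits of the mitochondrial respiratory chain and of ATP synthase were followed in sorted mouse T cells with and without Tet2 and Tet3. Members were taken by symbol, as genes whose names begin with *Ndufa*, *Ndufb*, *Ndufc*, *Ndufs* or *Ndufv* (complex I), equal *Sdha* to *Sdhd* (complex II), or begin with *Uqcr* (complex III), *Cox4* to *Cox8* (complex IV) or *Atp5* (complex V), leaving out the *Ndufaf* assembly factors. The table for spleen and peripheral lymph nodes (pLNs) held 81 of them among 16740 genes, and the table for mesenteric lymph nodes (mLN) held 80 among 16784. By complex there were 36 genes of complex I, 4 of complex II, 8 of complex III, 16 (spleen and pLNs) or 15 (mLN) of complex IV and 17 of complex V. The symbols admitted a few genes that code for no subunit: *Cox4nb* is an older name of *Emc8*, of the endoplasmic reticulum, and *Atp5s* and *Atp5sl* code for assembly factors. Genes of the mitochondrial genome and 4 tissue-restricted isoforms that the rule would also take (*Cox7b2*, *Cox8b*, *Cox8c* and *Ndufa4l2*) were not analysed here.

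In oxidative phosphorylation, complexes I and II pass electrons from NADH and succinate to ubiquinone, complex III passes them to cytochrome c and complex IV to oxygen. Complexes I, III and IV pump protons out of the matrix, and complex V, ATP synthase, makes ATP as the protons return. Core subunits carry the redox centres or the catalytic sites, and accessory subunits, most of them small, hold the complexes together. Regulatory T cells (Treg), which carry the transcription factor Foxp3 and restrain other T cells, rely on mitochondrial respiration more than newly activated conventional CD4+ T cells do.

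WT mice were Foxp3Cre controls, and DKO mice were Tet2/3fl/flFoxp3Cre, with both genes floxed and deleted by a YFP-Cre fusion expressed from the *Foxp3* locus. All groups therefore carried the Cre, and in the DKO mice only cells that expressed, or once expressed, *Foxp3* were expected to lose *Tet2* and *Tet3*. All animals were on C57BL/6 and 14 weeks old. From each genotype CD4+YFP+ cells (Treg) and CD4+YFP- cells (called CD4+Foxp3-) were sorted, giving 4 groups per table with 2 libraries each from pooled spleen and pLNs and 3 libraries each from mLN. The labels number the replicates without saying whether a number stands for a single mouse, so p-values measure the spread between these libraries.

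Depth was 13525932 to 15253141 reads on genes for each spleen and pLN library and 9998478 to 15449158 for each mLN library. *Foxp3* stood at 152.5 to 419 CPM (counts scaled to the library size) in the spleen and pLN Treg and at 277 to 329 CPM in the mLN Treg, against at most 0.741 and 2.75 CPM in the CD4+Foxp3- cells, so the sorts went with their labels. Counts over the whole *Tet2* and *Tet3* genes, which include exons outside the deletion, did not check the genotype: *Tet3* was at 69.0, 86.5 and 78.2 CPM in the WT mLN Treg and at 68.5, 48.4 and 73.3 CPM in the DKO mLN Treg. In spleen and pLNs the DKO Treg libraries were the higher, at 31.0 and 30.6 CPM in the WT and 61.0 and 38.1 CPM in the DKO for *Tet3* and at 2.08 and 1.11 CPM against 8.01 and 2.05 CPM for *Tet2*. The DKO mice of spleen and pLNs were littermates per the study, and the spleen of a single animal was more enlarged, but the labels do not say which replicate it was. Both libraries of DKO replicate 1 from spleen and pLNs stood apart from their groups. The DKO CD4+Foxp3- library had a summed level of 1815 CPM for 3 activation markers against 553 to 674.5 in WT, through *Icos* (1236 CPM against 188 and 212 in WT) and *Pdcd1* (404 CPM against 120 and 172), whereas *Cd44* was lower, at 174.8 CPM against 291 and 245. DKO Treg replicate 1 had 9619 CPM in all members together against 13150 in DKO Treg replicate 2. In mLN, summed plasma cell markers reached 539.5 CPM in a DKO CD4+Foxp3- library and 469 CPM in DKO Treg replicate 2, against 2.66 to 9.96 CPM in the WT libraries. Several other marker sums also separated all DKO from all WT mLN Treg libraries. The 3 NK cell markers summed to 72.5 to 156 CPM against 5.21 to 8.19, nearly all of it *Klrb1c*, with *Ncr1* and *Klrk1* under 1 CPM in each Treg library. The 6 myeloid markers summed to 14.2 to 54.3 against 2.85 to 4.77 CPM, and the 4 markers of naive cells to 1381 to 2085 against 2410 to 2817 CPM. The 3 activation markers summed to 1202 to 1426 against 677 to 726 CPM through *Icos* and *Pdcd1*, whereas *Cd44* was lower in DKO, at 154 to 217 against 238 to 268 CPM. The 5 Treg markers summed to 1480 to 1679 against 1878 to 2040 CPM, with *Il2ra* at 239.5 to 450 against 703 to 797 CPM. The 5 B cell markers summed to 8.81 to 20.8 against 26.8 to 35.4 CPM through *Cd79b*, whereas *Pax5* was higher (0.216 to 2.29 CPM against 0). The 2 CD8 markers summed to 2.95 to 3.94 against 16.0 to 20.8 CPM. Their part in the differences of the members was not tested. In bulk RNA, fewer cells of a type and less RNA per cell cannot be told apart.

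Levels were compared between genes as TPM, the share of transcripts, which corrects for length, over all libraries of a table. In mLN, *Uqcrh* (hinge subunit of complex III) had a median of 880 TPM over the 12 libraries and ranged from 815 to 976 TPM. *Cox7a2l*, a factor for joining complexes III and IV into supercomplexes whose function differs between mouse strains, followed at a median of 878 TPM, and *Atp5b*, the catalytic beta subunit of ATP synthase, at 877 TPM. These 3 neighbours differed by less than the range of *Uqcrh* alone, and their order changed with the group. *Cox7a2l* was the highest of them in WT CD4+Foxp3- cells (mean of 1039 TPM), *Atp5b* in DKO Treg (1055 TPM) and *Uqcrh* in WT Treg (909.7 TPM). The membrane ring subunit *Atp5g2* and the complex IV gene *Cox4i1* had medians of 711 and 709.8 TPM, and *Atp5a1*, the alpha subunit, 669 TPM. The core subunits of complex I were lower, with 80.7 TPM for *Ndufv1*, the NADH-binding subunit, and 53.3 TPM for *Ndufs1*, an iron-sulfur subunit. The flavoprotein *Sdha* of complex II had 218 TPM and the complex III core gene *Uqcrc1* 187 TPM. In spleen and pLNs *Uqcrh* again had the highest median (1069 TPM), followed by *Cox7a2l* (1056 TPM) and *Cox4i1* (991 TPM). This order changed with the group too. *Cox7a2l* averaged 1179 TPM and *Uqcrh* 1041 TPM in WT CD4+Foxp3- cells, against 813 and 1096 TPM in DKO Treg.

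Of the paired isoforms of complex IV, the T cells held the form found in most tissues. In mLN, *Cox4i1*, *Cox6a1*, *Cox6b1* and *Cox7a2* had medians of 709.8, 385, 523 and 180.2 TPM, whereas *Cox6b2*, *Cox7a1* and *Cox4i2* had 1.14, 1.04 and 0.0793 TPM and *Cox6a2* was listed at 0 in the median library. *Cox4i2* had at most 2 reads in any mLN library and 1 in any spleen and pLN library. *Cox6a2*, the heart and muscle form, had at most 1 read in any mLN library, and its highest count in spleen and pLNs was 11 reads, in DKO CD4+Foxp3- replicate 1. A count of 3 reads corresponded to 0.203 to 0.299 CPM in mLN and 0.172 to 0.241 CPM in spleen and pLNs, so levels below this were not detectable at this depth. The 3 *Atp5g* genes code for the same mature ring subunit and were all present in mLN, at 202 TPM for *Atp5g1*, 711 TPM for *Atp5g2* and 497 TPM for *Atp5g3*.

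Together the members took 1.92 to 1.94% of all TPM in the WT mLN Treg and 2.08 to 2.27% in the DKO mLN Treg. In the CD4+Foxp3- cells they took 1.73 to 1.76% in WT and 1.81 to 1.92% in DKO. In each complex the WT CD4+Foxp3- cells were lowest. Complex I, for example, took 0.502 to 0.505% in WT Treg, 0.551 to 0.591% in DKO Treg, 0.443 to 0.459% in WT CD4+Foxp3- cells and 0.466 to 0.501% in DKO CD4+Foxp3- cells. ATP synthase was the most abundant, with 0.677 to 0.698% in WT Treg and 0.720 to 0.799% in DKO Treg, and complex II the least, with 0.0634 to 0.0660% and 0.0726 to 0.0798%. On this scale no DKO Treg library of mLN overlapped a WT Treg library in any complex. The median of all genes at 10 CPM or more was itself higher in DKO Treg by TPM, by log2 0.13, beside 0.22 for the members. In spleen and pLNs these medians were 0.26 and 0.15. How many of all genes, or sums of other genes, separated in this way was not counted. The ranges of all members overlapped in spleen and pLNs, at 2.27 to 2.28% in WT and 2.27 to 2.50% in DKO Treg, as did those of complex III (0.273 to 0.278% and 0.2705 to 0.301%) and complex IV (0.549 to 0.5545% and 0.519 to 0.587%), whereas complexes I, II and V were higher in both DKO libraries. Sums were also taken on CPM scaled by trimmed mean of M values (TMM), which sets the libraries level by the bulk of their genes. In spleen and pLNs complexes II and IV were then lower in both DKO Treg libraries. Complex II summed to 576 to 685 CPM in DKO against 695 to 698 CPM in WT, and complex IV to 1694 to 2509 against 2678 to 2711 CPM. Complexes I (2316 to 3190 against 3098 to 3145 CPM) and V (4003 to 5351 against 5217 to 5399 CPM) overlapped. In mLN the sums of all members overlapped on this scale, at 9443 to 9934 CPM in WT Treg and 8894 to 10350 CPM in DKO Treg. The summed level of cytosolic ribosomal protein genes moved between the same groups, from 135100 to 148100 CPM in WT mLN Treg to 97300 to 110400 CPM in DKO mLN Treg. Its part in the TPM shares was not tested.

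**Figure D1:**
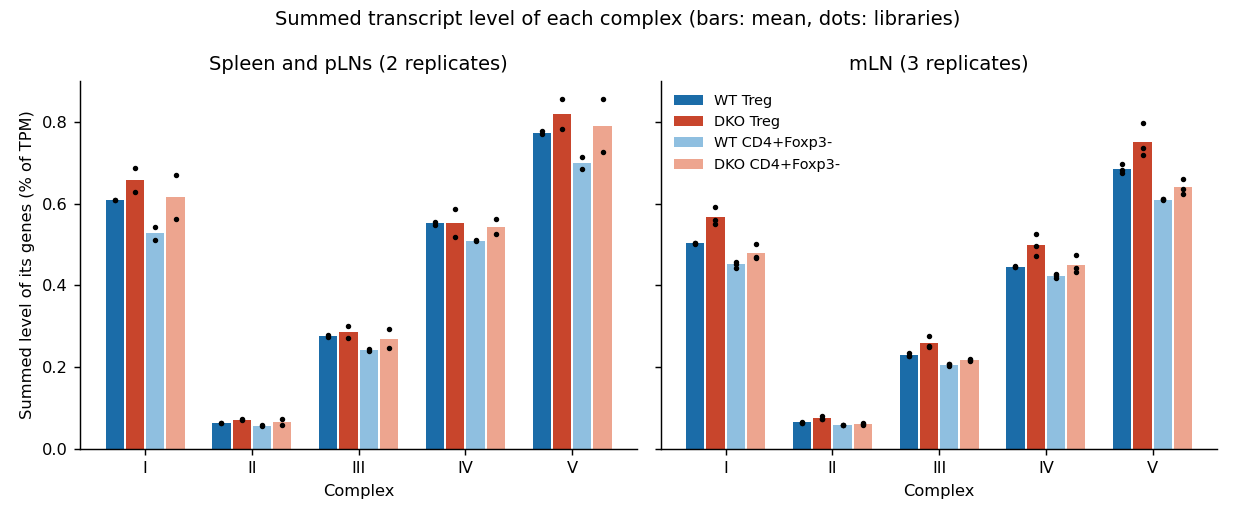
Percent of all TPM taken by the genes of each complex, as a point for each library, by group and table. In mLN the 3 DKO Treg libraries sit above the 3 WT Treg libraries in each complex, and for all members together they lie at 2.08 to 2.27% against 1.92 to 1.94%. The median of all genes at 10 CPM or more was also higher in DKO Treg of mLN by TPM (log2 0.13).

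Differences for single genes were tested on the counts with edgeR's quasi-likelihood test, TMM scaling and all 4 groups of a table in the fit, and p-values were adjusted by Benjamini-Hochberg over all genes tested (16357 in spleen and pLNs, 16784 in mLN). A gene passed where its adjusted p was 0.05 or lower, and fold changes are given as log2 with their standard error (SE).

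In mLN Treg, loss of Tet2 and Tet3 went with higher *Uqcr10* and with lower *Ndufa6*, *Ndufa5*, *Cox7a2l*, *Atp5l* and *Atp5h*, and 6 of the 80 members passed. The 1 member that was higher compares with 11.1% of all genes higher, and the 5 that were lower with 8.29% of all genes lower. No member also reached the 1.5-fold change that the study asked for, against 11.9% of all genes in either direction. By the looser measure of groups that did not overlap, 10 members had each DKO library above each WT library (21.3% of all genes did) and 9 had each DKO library below (19.2% of all genes).

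*Uqcr10*, a small accessory subunit of complex III (chr11:4601976-4604345, minus strand of NCBIM37, the mm9 assembly), stood at 48.7, 47.7 and 54.7 CPM in the WT mLN Treg and at 61.6, 87.5 and 77.3 CPM in the DKO mLN Treg. The lowest DKO library was above the highest WT library, and the difference was 0.58 (SE 0.12, adjusted p = 0.00404, edgeR), just short of 1.5-fold. In the CD4+Foxp3- cells it stood at 51.0, 46.0 and 53.3 CPM in WT against 59.1, 61.0 and 63.4 CPM in DKO, again without overlap, but the difference of 0.29 did not pass (adjusted p = 0.195). The WT Treg and WT CD4+Foxp3- libraries overlapped, with a difference of 0.01.

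*Ndufa6*, an accessory subunit of the matrix arm of complex I that binds the acyl carrier protein (chr15:82180569-82184721, minus strand), stood at 95.6, 88.2 and 89.4 CPM in the WT mLN Treg and at 59.8, 59.4 and 66.0 CPM in the DKO mLN Treg. The highest DKO library was well below the lowest WT library, with a difference of -0.56 (SE 0.08, adjusted p = 0.000597). The CD4+Foxp3- cells held 100.8, 91.7 and 94.6 CPM in WT against 85.6, 90.1 and 78.6 CPM in DKO, also without overlap but with a difference of -0.17 (adjusted p = 0.259). The genotype effect in Treg minus that in CD4+Foxp3- cells was -0.39 (SE 0.11), which did not pass over all genes (adjusted p = 0.180).

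*Ndufa5*, another accessory subunit of the matrix arm (chr6:24468666-24478013, minus strand), stood at 28.6, 26.5 and 24.2 CPM in the WT mLN Treg and at 20.2, 17.97 and 18.5 CPM in the DKO mLN Treg. The groups did not overlap, and the difference was -0.48 (SE 0.11, adjusted p = 0.00803). In the CD4+Foxp3- cells the levels were 23.7, 21.9 and 21.5 CPM in WT against 20.5, 18.1 and 17.1 CPM in DKO, below in each library with a difference of -0.27 that did not pass (adjusted p = 0.199).

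*Cox7a2l* (chr17:83901259-83913673, minus strand) stood at 580, 541 and 527 CPM in the WT mLN Treg and at 394, 418 and 452 CPM in the DKO mLN Treg. No libraries overlapped, and the difference was -0.38 (SE 0.09, adjusted p = 0.01275). In the CD4+Foxp3- cells it stood at 748, 685 and 706 CPM in WT against 702, 548 and 634 CPM in DKO. Each CD4+Foxp3- library was above each Treg library of its own genotype, and DKO CD4+Foxp3- replicate 2 lay within the WT Treg range.

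The last pair that passed belongs to ATP synthase, and both were named after their values were seen, since they fell outside the 3 largest decreases. *Atp5h*, subunit d of the peripheral stalk (chr11:115277003-115281276, minus strand), stood at 223, 206.5 and 202 CPM in the WT and 158, 178 and 161 CPM in the DKO mLN Treg, without overlap (-0.35, SE 0.11, adjusted p = 0.0481). *Atp5l*, subunit g of the membrane part (chr9:44721333-44728825, minus strand), stood at 161, 146 and 153 CPM in the WT and 116, 134 and 127 CPM in the DKO mLN Treg, also without overlap (-0.29, SE 0.08, adjusted p = 0.0285). *Atp5h* no longer passed when any Treg library or any WT CD4+Foxp3- library was left out, and *Atp5l* when any WT Treg library or DKO Treg replicate 1 or 3 was. *Cox7a2l* was lost without WT Treg replicate 1 (adjusted p = 0.0602). Over the alternative settings, the 1.5-fold minimum apart, *Atp5h* passed in 11 and *Atp5l* in 16 of 23, against 23 of 23 for *Uqcr10*, *Ndufa6* and *Ndufa5* and 22 of 23 for *Cox7a2l*.

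**Figure D2:**
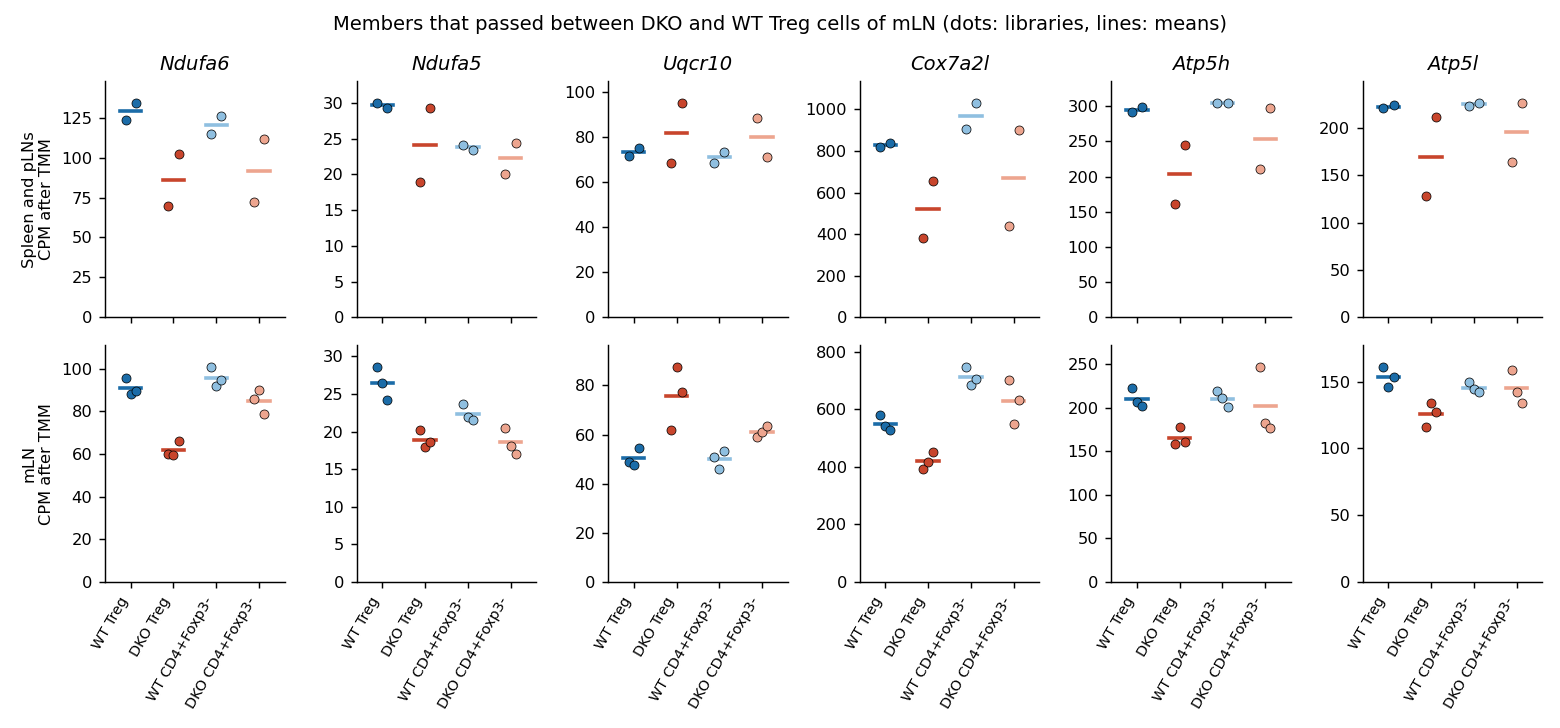
TMM-scaled CPM of the 6 members that passed between DKO and WT Treg of mLN, in both tables, with a point for each library and a line for the mean of each group. In mLN *Uqcr10* is at 61.6 to 87.5 CPM in DKO Treg against 47.7 to 54.7 CPM in WT Treg, and *Ndufa6* at 59.4 to 66.0 CPM against 88.2 to 95.6 CPM.

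Within each complex the passing genes were exceptions. In complex I, 25 members had a higher and 11 a lower fitted level in DKO than in WT mLN Treg, with a median difference of 0.06, beside 0.005 over all genes tested. No subunit of the redox core passed. *Ndufv1* stood at 74.05, 75.9 and 75.2 CPM in WT against 81.3, 84.2 and 77.3 CPM in DKO (0.11, SE 0.08, adjusted p = 0.382). Each DKO library was above each WT library by a small margin that did not pass. *Ndufs8*, an iron-sulfur subunit, had a difference of 0.19 (adjusted p = 0.159) and *Ndufs7*, another, a difference of -0.15 (adjusted p = 0.311). *Ndufs1*, *Ndufs3* and the acyl carrier protein *Ndufab1* differed by 0.07, 0.06 and -0.02.

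The 4 genes of complex II, which is also an enzyme of the citric acid cycle, had a median difference of 0.05. *Sdhd*, a membrane anchor, stood at 102, 92.9 and 99.0 CPM in WT against 100.6, 138 and 115.5 CPM in DKO mLN Treg. DKO replicate 1 lay within the WT range, and the difference of 0.27 did not pass (SE 0.11, adjusted p = 0.0910). *Sdha* stood at 353, 358 and 326.5 CPM in WT against 318, 333 and 295 CPM in DKO, overlapping (-0.13, adjusted p = 0.260), and *Sdhb*, the iron-sulfur subunit, and *Sdhc*, the other anchor, differed by 0.16 and -0.06.

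Apart from *Uqcr10*, complex III had *Uqcrc1*, a core protein, at 176, 170 and 170.5 CPM in WT against 189, 214 and 184 CPM in DKO mLN Treg (0.18, SE 0.07, adjusted p = 0.0975). The groups did not overlap, and the gene passed in the DESeq2 Wald test. *Uqcrc2*, the other core protein, went the other way, at 268, 255 and 261 CPM in WT against 223.5, 251 and 245 CPM in DKO (-0.12, adjusted p = 0.345), and the Rieske protein *Uqcrfs1* differed by 0.03.

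In complex IV, *Cox8a*, a small subunit of the membrane part, stood at 128, 129 and 135 CPM in WT against 142, 178.5 and 161 CPM in DKO mLN Treg (0.30, adjusted p = 0.0895), and at 128, 126 and 139 CPM in WT against 142, 196 and 154 CPM in DKO CD4+Foxp3- cells (0.33, adjusted p = 0.144). Its DKO libraries were above the WT libraries in both cell types without passing in either. *Cox4i1* stood at 299, 301.5 and 287 CPM in WT against 240, 288 and 263 CPM in DKO Treg (-0.17, adjusted p = 0.195), where DKO replicate 2 reached the WT range. The testis form *Cox6b2* had 2, 5 and 2 reads in the WT and 13, 28 and 6 reads in the DKO mLN Treg, a difference that just missed the threshold (adjusted p = 0.0518) and rests on few reads.

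In complex V, the catalytic genes did not pass. *Atp5b* stood at 964, 915 and 916.5 CPM in WT against 899, 1015 and 976 CPM in DKO mLN Treg, with overlap (0.05, adjusted p = 0.740), and *Atp5a1* differed by 0.07 (adjusted p = 0.532). *Atp5c1*, *Atp5d* and *Atp5e*, the subunits of the central stalk, differed by -0.12, 0.10 and -0.16, and *Atp5o*, of the peripheral stalk, by -0.03. The passing decreases of *Atp5h* and *Atp5l* therefore stood beside subunits of the same enzyme whose differences were smaller and did not pass.

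For most members the mLN data bound the effect of genotype closely. Of the 75 members with a mean of at least 10 CPM, 70 had a 95% interval of the Treg difference that lay wholly within 1.5-fold in either direction, with a median SE of 0.0922. For 5 members the interval reached 1.5-fold. In the CD4+Foxp3- cells the intervals of all 75 lay within 1.5-fold.

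**Figure D3:**
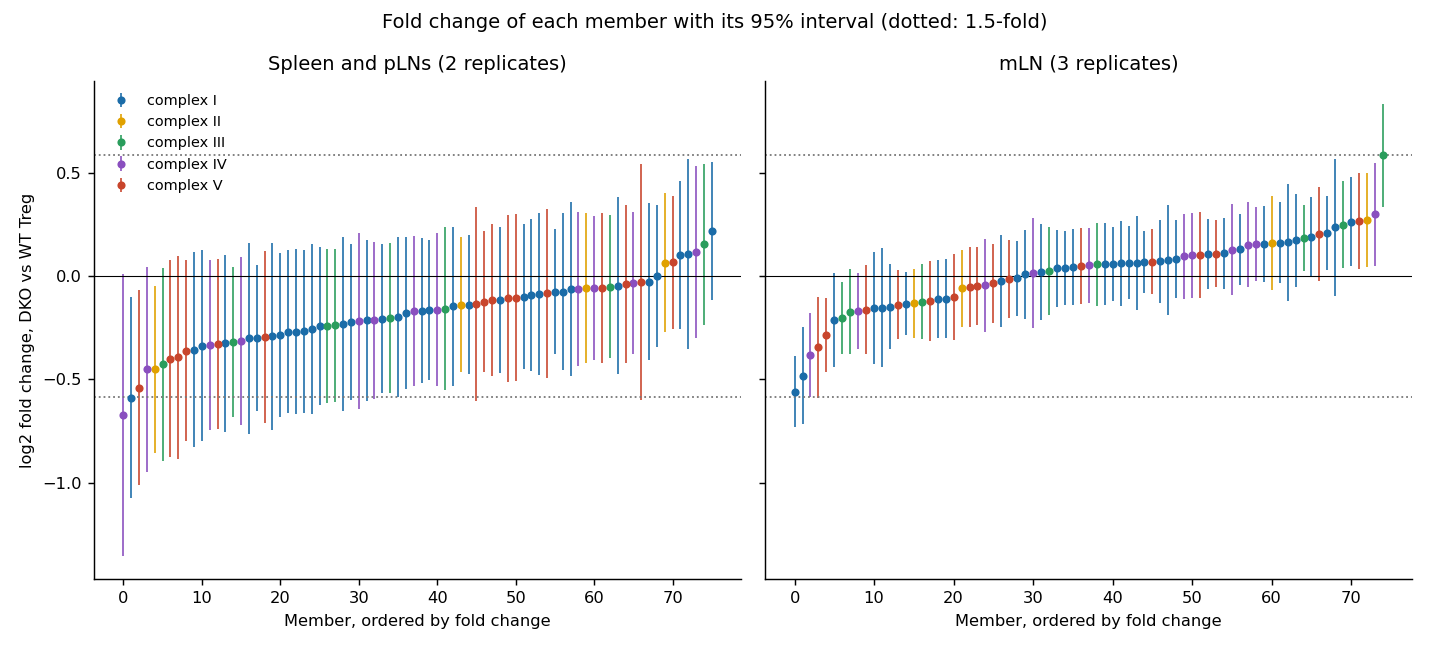
Log2 difference between DKO and WT Treg of each member with a mean of at least 10 CPM, as a point with its 95% interval, by table. In mLN the intervals of 70 of 75 members lie within 1.5-fold, and in spleen and pLNs those of 40 of 76.

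The size of the members' median followed the scaling, and its sign did not change. With TMM their median difference in mLN Treg was 0.05 (46 higher and 29 lower at 10 CPM or more) beside -0.04 over all such genes. With library totals alone the values were 0.16 (57 higher and 18 lower) beside 0.07, and with TPM 0.22 (68 higher and 7 lower) beside 0.13. The members therefore stood 0.09 above the median gene in each case, and the scaling moved both together. Complex V did not share this, at -0.005, -0.004 and -0.003 from the median gene with TMM, library totals and TPM. By fitted level 6 of its genes were higher and 11 lower, with a median of -0.05. By limma on log2(TPM + 1), 37 members were higher and 3 lower, against 19.1% and 4.12% of all genes. *Uqcr10* passed as higher, and *Ndufa6*, *Ndufa5* and *Cox7a2l* as lower, under each of these scalings, whereas *Atp5h* and *Atp5l* did not pass with library totals or TPM.

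**Figure D4:**
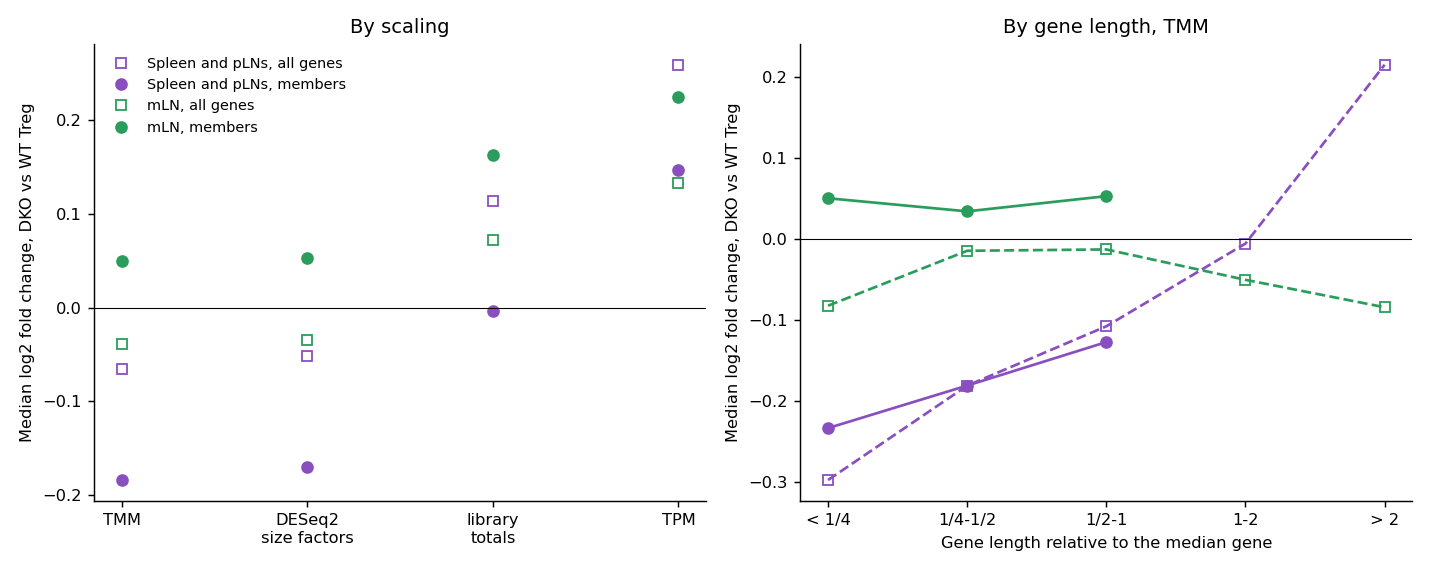
Median log2 difference between DKO and WT Treg of members and of all genes under each scaling, and the same medians by bins of gene length relative to the median gene. In mLN members lie 0.09 above all genes under TMM, library totals and TPM, and in spleen and pLNs the medians of all genes climb from -0.30 in the shortest bin to 0.21 in the longest.

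In mLN CD4+Foxp3- cells no member passed between DKO and WT by edgeR, although 3.83% of all genes did. Before adjustment 9 members had p under 0.05, and DESeq2 also passed 0 members. Fitted levels were higher for 42 and lower for 38 members, and their median of 0.01 was close to that of all genes, 0. The largest differences at 10 CPM or more were the 0.33 of *Cox8a* and the -0.27 of *Ndufa5*.

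The difference of the genotype effect between Treg and CD4+Foxp3- cells passed for no member in mLN, against 0.28% of all genes. By unadjusted p 2 members were under 0.05, and DESeq2 passed 1, *Ndufa6*. The smaller effects of *Ndufa6*, *Ndufa5*, *Cox7a2l* and *Uqcr10* in CD4+Foxp3- cells were thus not shown to differ from those in Treg by edgeR, and *Ndufa6* did differ by DESeq2.

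Between cell types of WT mLN, 3 members were higher in Treg than in CD4+Foxp3- cells, *Atp5j*, *Ndufb8* and *Uqcrb*, and *Cox7a2l* was lower, against 8.97% of all genes higher and 6.09% lower. *Atp5j*, coupling factor 6 of the ATP synthase peripheral stalk (chr16:84828111-84835870), stood at 132, 124 and 124 CPM in Treg and at 103, 98.5 and 99.3 CPM in CD4+Foxp3- cells (0.33, SE 0.09, adjusted p = 0.0210). *Ndufb8*, an accessory subunit of the membrane arm of complex I (chr19:44618212-44627321), stood at 60.5, 61.3 and 58.6 CPM and at 49.5, 44.2 and 49.8 CPM (0.33, SE 0.09, adjusted p = 0.0257). In both genes each Treg library was above each CD4+Foxp3- library. Marker sums moved between these libraries too. B cell markers, mostly *Cd79b*, were at 26.8 to 35.4 CPM in Treg against 2.39 to 2.70 CPM in CD4+Foxp3- cells. Naive markers were at 2410 to 2817 against 4957 to 5221 CPM and activation markers at 677 to 726 against 261 to 311 CPM. Proliferation markers were at 1270 to 1397 against 1010 to 1036 CPM. The part of these markers was not tested. With any 1 of the WT libraries left out, at most 1 of the 4 passing members still passed, and 0 did without WT Treg replicate 2 or WT CD4+Foxp3- replicate 3.

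*Uqcrb*, a complex III subunit near the ubiquinone site (chr13:67001553-67006314), stood at 76.7, 74.5 and 66.3 CPM in WT Treg and at 64.2, 58.9 and 56.9 CPM in WT CD4+Foxp3- cells, without overlap (0.27, SE 0.08, adjusted p = 0.0378). *Cox7a2l* was lower in Treg by the values given above, with a difference of -0.38 (adjusted p = 0.01624). *Cox5b*, a zinc-binding subunit of complex IV, and *Ndufv2*, an iron-sulfur subunit of the NADH-oxidizing part of complex I, were higher in each WT Treg library but just missed the threshold (0.30, adjusted p = 0.0524, and 0.26, adjusted p = 0.0522). Both of them passed once the replicate number, taken to pair Treg and CD4+Foxp3- libraries of a genotype, was added as a block. Under that block 6 members were higher and 2 lower, against 10.6% and 8.03% of all genes.

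In the DKO mLN, *Uqcrb*, *Ndufv2* and *Ndufc2* were higher in Treg than in CD4+Foxp3- cells and *Ndufa6* and *Cox7a2l* lower, against 9.85% of all genes higher and 7.76% lower. *Ndufv2* (chr17:66428135-66450899) stood at 94.6, 117 and 97.9 CPM in DKO Treg and at 82.9, 87.5 and 81.2 CPM in DKO CD4+Foxp3- cells, without overlap (0.30, SE 0.08, adjusted p = 0.0242). *Ndufc2*, of the membrane arm (chr7:104548513-104556312), stood at 47.3, 54.3 and 51.5 CPM and at 43.3, 41.0 and 40.0 CPM (0.30, SE 0.09, adjusted p = 0.0267). *Uqcrb* differed by 0.27 (adjusted p = 0.0359), as in WT. By fitted level 48 members at 10 CPM or more were higher and 27 lower in Treg, with a median of 0.05 beside -0.02 over all such genes. With library totals alone the counts were 63 and 12 (0.19 beside 0.11), and with TPM 71 and 4 (0.28 beside 0.20), so the split followed the scaling. None of *Uqcrb*, *Ndufv2* and *Ndufc2* passed without DKO Treg replicate 2, DKO CD4+Foxp3- replicate 3 or WT CD4+Foxp3- replicate 1 or 3.

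*Cox7a2l* differed by -0.58 between the DKO cell types (SE 0.09, adjusted p = 0.001075), beside -0.38 in WT, and the 2 values were not shown to differ (interaction -0.20, adjusted p = 0.647). *Ndufa6* differed by -0.46 (SE 0.08, adjusted p = 0.00160), beside -0.07 in WT. Both genes passed under each of the 24 alternative settings other than the 1.5-fold minimum. The WT and DKO comparisons between cell types use separate libraries, and *Uqcrb* was the 1 member higher in Treg in both, out of 3 in each. The overlap over all genes was not counted.

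**Figure D5:**
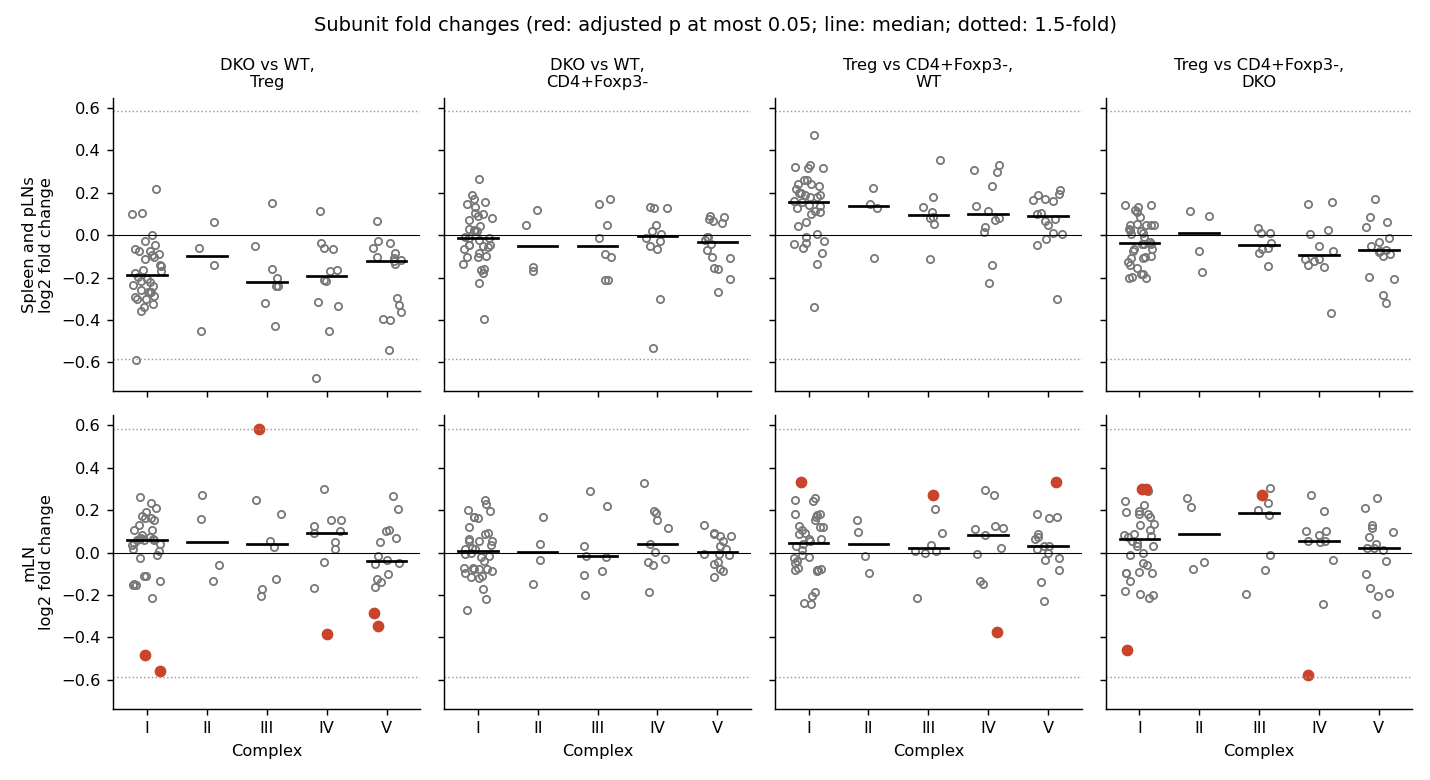
Log2 differences of the members that averaged 10 CPM or more, in the 4 comparisons of each table, as a point for each member by complex, with the median of each complex as a line and passing members in red. In mLN *Ndufa6* at -0.56 and *Uqcr10* at 0.58 mark the ends of the DKO against WT Treg comparison at 10 CPM or more, and no member passes in spleen and pLNs.

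In spleen and pLNs no member passed in any comparison, and the libraries were less alike, with a biological coefficient of variation of 21.6% against 17.7% in mLN. Between DKO and WT Treg 1.74% of all genes passed, and 3 members had an unadjusted p under 0.05. Between DKO and WT CD4+Foxp3- cells 0.819% of genes and 0 members passed (0 members at an unadjusted p under 0.05). Between Treg and CD4+Foxp3- cells 4.0% of genes passed in WT and 3.78% in DKO, with 2 and 0 members at an unadjusted p under 0.05, and for the interaction 0.00611% of genes passed, with 0 members at an unadjusted p under 0.05. DESeq2 also passed 0 members in each of these 5 comparisons.

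Fitted levels leaned one way in Treg of spleen and pLNs, with 71 members lower and 10 higher in DKO and a median of -0.17, beside 0.02 over all genes tested. Between the same libraries NK cell markers summed to 89.2 to 113 CPM in DKO against 6.40 to 7.53 in WT, again mostly *Klrb1c*. Plasma cell markers summed to 16.2 to 90.5 against 4.25 to 5.53 and myeloid markers to 11.8 to 32.6 against 2.84 to 4.59 CPM. B cell markers summed to 9.83 to 13.2 against 27.7 to 29.6 CPM through *Cd79b*, whereas *Ms4a1* was higher (5.72 and 1.16 against 0.0769 and 0.209 CPM). CD8 markers summed to 6.70 to 9.42 against 17.2 to 19.7 CPM. Activation markers summed to 897 to 963.5 against 752 to 855 CPM through *Icos* (522 and 471 against 356 and 335 CPM). *Pdcd1* overlapped and *Cd44* was lower (167 and 239 against 281 and 249 CPM). Naive markers summed to 1434 to 1734 against 2048 to 2142 CPM, although *Tcf7* overlapped (625 and 489 against 573 and 570 CPM). Proliferation markers summed to 1630 to 1800 against 1205 to 1248 CPM. Of these *Mki67* passed as higher (3.48, adjusted p = 0.0361, edgeR), at a mean of 16.0 CPM in DKO (SD 16.3) against 1.43 CPM in WT (SD 0.255). *Myc*, a regulator of growth, also passed as higher (0.86, adjusted p = 0.0274, edgeR). These calls were not stable. The number of passing proliferation markers, and that of biogenesis regulators, the list that holds *Myc*, changed in each of the 8 settings that left out a library. The part of these markers and genes in the lean was not tested. By complex the medians at 10 CPM or more were -0.20 in I, -0.11 in II, -0.23 in III, -0.21 in IV and -0.13 in V. In all, 25 members had both DKO libraries below both WT libraries (26.1% of all genes did), whereas 2 had both above (28.1% of all genes). *Cox7a2l* stood at 819 and 838.5 CPM in WT against 383 and 656 CPM in DKO Treg (-0.67, SE 0.31, adjusted p = 0.250). *Ndufa6* stood at 123.2 and 134 CPM in WT against 69.5 and 102 CPM in DKO Treg (-0.59, SE 0.22, adjusted p = 0.163), and *Atp5h* at 291 and 299 CPM and at 161 and 245 CPM (-0.54, SE 0.22, adjusted p = 0.186). In all 3 genes the DKO libraries were below the WT libraries and DKO replicate 1 was the lower by far.

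Other members showed the same gap between the DKO replicates. *Cox4i1* stood at 488 and 482 CPM in WT Treg and at 279 and 430 CPM in DKO Treg (-0.45, adjusted p = 0.289), and *Ndufv1* at 129.7 and 127 CPM in WT against 89.4 and 128 CPM in DKO Treg (-0.24, adjusted p = 0.485). DKO replicate 2 lay near or within the WT values and replicate 1 below them. *Ndufa5* followed this too, at 30.05 and 29.2 CPM in WT Treg and at 18.95 and 29.2 CPM in DKO Treg (-0.30, adjusted p = 0.463). *Sdha* showed no such gap, at 324 and 312 CPM in WT Treg against 286 and 292 CPM in DKO Treg (-0.14). *Uqcr10* stood at 71.9 and 75.4 CPM in WT against 68.5 and 95.4 CPM in DKO Treg, on both sides of WT (0.15, adjusted p = 0.690).

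Without DKO Treg replicate 1 the median of the members was 0.02, and without DKO Treg replicate 2 it was -0.44, with 18 members passing as lower (4.19% of all genes lower, 7.34% higher). That fit compares the single DKO Treg library that stands apart with WT, and takes its spread from the other groups. With both libraries of DKO replicate 1 left out, and the lone DKO libraries assumed to vary like the other groups, *Uqcr10*, *Ndufa8* and *Ndufc1* passed as higher and *Atp5h*, *Ndufa6* and *Cox7a2l* as lower, against 9.69% and 9.73% of all genes. Of these, *Uqcr10* was also the 1 member that was higher in mLN, and all 3 that were lower were among the 5 lower members of mLN. The 2 tables come from separate libraries, but this setting was chosen after seeing the data. How many of all genes passed in both was not counted, so this overlap has no background share.

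Members are short, with a median length of 0.240 of the median gene in the spleen and pLN table and 78 of 81 shorter than it. Over all genes at 10 CPM or more in that table, the DKO minus WT difference in Treg climbed with length, from -0.30 in the bin of shortest genes to 0.21 in genes over 2 times as long as the median gene, and 39 members in the shortest bin had a median of -0.23. With a loess curve over length taken out, the members' median was -0.01 beside -0.05 for all genes. In mLN the bins showed no such climb, at -0.08 in both the shortest and the longest bin. Library totals gave a member median of -0.003 in spleen and pLNs and TPM 0.15, beside 0.11 and 0.26 for all such genes. The members thus stood 0.12, 0.12 and 0.11 below the median gene under TMM, library totals and TPM, and 0.05 above it with the length curve taken out. Cytosolic ribosomal protein genes, also short, were lower for 78 of 79 in DKO Treg of spleen and pLNs, with 0 passing, and their part in this pattern was not tested.

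Between Treg and CD4+Foxp3- cells of WT spleen and pLNs, fitted levels were higher in Treg for 64 of 81 members, with a median of 0.13 beside 0 over all genes tested. Marker sums moved between these libraries too, with NK cell markers at 74.2 to 118 CPM in CD4+Foxp3- cells against 6.40 to 7.53 CPM in Treg (*Klrk1* at 22.7 and 16.2 against 0.154 and 0.278 CPM), B cell markers at 3.54 to 3.57 against 27.7 to 29.6 CPM and naive markers at 3534 to 3743 against 2048 to 2142 CPM. Their part was not tested. This comparison also moved with gene length, and with the length curve taken out the median of the members at 10 CPM or more fell from 0.13 to 0.06, with 52 of 76 higher. *Ndufb8* stood at 104 and 98.8 CPM in Treg and at 73.2 and 73.3 CPM in CD4+Foxp3- cells (0.47, SE 0.18, adjusted p = 0.234). *Cox5b* stood at 153 and 150.2 CPM and at 125 and 121.5 CPM (0.30, adjusted p = 0.516). The libraries of a group lay close together and the groups apart, but the spread in the fit came from all 4 groups, DKO replicate 1 included. Fitted on these 4 WT libraries alone, 22 members passed as higher and *Ndufa10*, *Cox7a2l* and *Atp5sl* as lower, against 15.4% and 16.4% of all genes. *Cox5b*, *Cox6c*, *Ndufb8* and *Ndufv2* were higher both there and in the blocked fit of mLN, 4 of the 22 and 4 of the 6. The overlap of these fits over all genes was not counted.

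In DKO spleen and pLNs, 32 members were higher and 48 lower in Treg than in CD4+Foxp3- cells, with a median of -0.04. *Ndufb8* stood at 73.4 and 102 CPM in DKO Treg and at 97.9 and 78.0 CPM in DKO CD4+Foxp3- cells. Its Treg library was the lower in replicate 1 and the higher in replicate 2.

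Intervals were wider than in mLN. Of 76 members at 10 CPM or more, 40 had an interval of the DKO against WT Treg difference wholly within 1.5-fold, with a median SE of 0.178, and for 36 the interval reached 1.5-fold. In CD4+Foxp3- cells 65 lay within it, and for the interaction 10.

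Other genes of the same pathway were counted beside the members from lists of assembly factors, citric acid cycle enzymes, electron and ATP carriers, mitochondrial ribosomal proteins and regulators of biogenesis. The counts below are to be read against the 11.1% of all genes that were higher and the 8.29% that were lower. In mLN DKO against WT Treg, 1 of 45 assembly factors was lower, *Atpaf1*, which puts the catalytic head of ATP synthase together (-0.30, adjusted p = 0.0440). Of 14 citric acid cycle genes 2 were higher, *Fh1*, fumarase (0.43, adjusted p = 0.00343), and *Idh3a* (0.32, adjusted p = 0.0196). Of 8 carriers of ATP, phosphate and protons 2 were higher, the ADP/ATP exchanger *Slc25a4* (0.48, adjusted p = 0.0174) and *Vdac1*, of the outer membrane (0.31, adjusted p = 0.0387), and *Tfam*, which packages mitochondrial DNA, was the 1 of 15 regulators that was lower (-0.26, adjusted p = 0.0302). Of 11 genes for cytochrome c, cytochrome c1 and ubiquinone synthesis 2 were higher, *Coq4* (0.91, adjusted p = 0.0169) and *Coq7* (0.87, adjusted p = 0.0477), both at means of 6.11 CPM or less, and mitochondrial ribosomal protein genes had 6 higher and 2 lower of 77. Most of these counts were not stable. Without DKO Treg replicate 2, 0 assembly factors, 0 ATP carriers, 0 genes of the cytochrome c and ubiquinone list, 0 biogenesis regulators and 1 citric acid cycle gene passed, and without any 1 of the WT Treg libraries 0 assembly factors and 0 ATP carriers did. The mitochondrial ribosome count of 8 went from 1 to 9 as single libraries were left out, with 1 or 2 without any 1 of the WT Treg libraries or DKO Treg replicate 2, and 4 or 5 without DKO Treg replicate 3 or any 1 of the WT CD4+Foxp3- libraries. Beside these, 63 of 80 cytosolic ribosomal protein genes were lower (36 to 70 passed with single libraries left out, 36 without WT Treg replicate 1) and 20 of 20 proliferation markers higher, the latter with sums of 1270 to 1397 CPM in WT against 2225 to 2780 CPM in DKO mLN Treg. The part of cycling cells in the members' differences was not tested.

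Promoter sequences, taken as 250 bases before to 50 after the start from RefSeq on GRCm38.p6, were found for 67 members. The motif of NRF1, a factor known to control genes of the respiratory chain, is shown because 4 of the 5 lower members had it. Written GCGCANGCG and searched on both strands, it was in 18 of the 67 promoters (26.9%) and in 6.47% of all 27025 promoters. Each line below runs 5′ to 3′ on the gene's strand, with the matching letters in capitals.

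Ndufa6: cgtggcaccgCGCGTGCGCacgctgaaggg
Ndufa5: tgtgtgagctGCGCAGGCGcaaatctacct
Atp5h: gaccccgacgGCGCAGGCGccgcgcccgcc
Atp5l: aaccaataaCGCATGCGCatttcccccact

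The windows lie on the minus strand at chr15:82354248-82354277 (*Ndufa6*), chr6:24527697-24527726 (*Ndufa5*), chr11:115420041-115420070 (*Atp5h*) and chr9:44920963-44920992 (*Atp5l*). The promoters of *Cox7a2l* and *Uqcr10* had no match to these letters. In the windows shown no searched motif overlapped another. The ETS motif CCGGAAG, which GABP binds, was in 22.4% of member promoters and 9.12% of all, and YY1's AAGATGG in 16.4% and 6.475%. The ERR motif AAGGTCA was in 10.4% and 4.66%, the GC box GGGCGG in 41.8% and 35.9% and CCAAT in 44.8% and 37.9%. *Ndufb8* held the YY1 letters, again in capitals and on the gene's minus strand at chr19:44555393-44555422.

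Ndufb8: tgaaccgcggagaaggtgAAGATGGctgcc

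Member promoters had a median GC content of 57.3% against 52.7% for all promoters, and since several of these motifs are made mostly of G and C, the shares were not compared by a test.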

How the data were processed

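RNA was measured in 20 libraries of sorted T cells. Per the methods and the submitters' processing notes, the authors made stranded poly(A) libraries, aligned single-end reads to mm9 with TopHat2 2.1.1, allowed each read a single alignment, and assigned reads to RefSeq genes with featureCounts. The deposited tables hold raw counts per gene and, beside them, TPM that the authors computed in a way not given in the sources used here. Reads shared with near-identical copies could be lost or misplaced by this counting. Each table was analysed on its own. Genes with at least 1 read were fitted with edgeR 4.0.16 (R 4.3.3; TMM, quasi-likelihood, 4 groups, no block). Rechecks used DESeq2 1.42.0, limma 3.58.1 on log2(TPM + 1), other scalings and filters, a length correction (loess span 0.5), blocks and omitted libraries. The script was tested on simulated data. Relative length was read from the ratio of counts to TPM. Members and lists were chosen with earlier results of these data known. Named were core subunits (1 item is not reported here), isoform families, the 3 largest passing changes each way at 10 CPM or more, members never above 3 counts and up to 4 passing genes per list. Replicate numbers were taken to pair Treg and CD4+Foxp3- libraries within a genotype of mLN, which the labels do not state. Deviations of same-numbered libraries from their group means correlated at 0.138 to 0.544. Differently numbered pairs were negative in WT. In DKO, Treg replicate 3 with CD4+Foxp3- replicate 1 reached 0.178, above the 0.138 of the pair numbered 1. Same-numbered libraries of different genotypes, which cannot share a mouse, reached 0.234.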

Additional observations from a re-analysis of the deposited data

Results flagged for a closer look

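*Ndufa7*, an accessory subunit of complex I, was named after its values were seen, because its Treg and CD4+Foxp3- libraries of WT mice lay apart in opposite directions in the 2 tables. In spleen and pLNs it stood at 104 and 102 CPM in Treg and at 94.2 and 87.7 CPM in CD4+Foxp3- cells (0.182, adjusted p = 0.799, edgeR). In mLN it stood at 54.0, 57.1 and 56.7 CPM in Treg and at 57.6, 59.3 and 60.5 CPM in CD4+Foxp3- cells (-0.0797, adjusted p = 0.581). Its length, read from counts and TPM, was 0.1696 of the median gene in the spleen and pLN table and 0.407 in the mLN table, and whether the gene models differed between the tables was not tested. Neither difference passed, and the difference between the tables was not tested.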

How the results depend on the processing

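Counts of passing members are given as higher plus lower, with the shares of all genes higher and lower in brackets. Counts with single libraries left out, and those of the replicate block over all groups, stand without these shares. They show only how the calls moved and cannot be set against all genes. Leaving out both libraries of a DKO replicate was chosen after seeing the data. Among named mLN results none reversed under any alternative. For DKO against WT Treg in mLN (6 members), a 1.5-fold minimum left 0, library totals alone gave 18 and 3 (21 members; 15.9% and 4.84%), limma on log2(TPM + 1) 37 and 3 (40; 19.1% and 4.12%), the length correction 6 and 5 (11; 11.9% and 8.16%), and with the replicate block 7 and 5 (12; 12.5% and 9.39%). Leaving out a library gave 3 (without WT Treg replicate 1) to 9 (without DKO CD4+Foxp3- replicate 2). For Treg against CD4+Foxp3- in WT mLN (4 members) the 1.5-fold minimum left 0, DESeq2 gave 9 (13.6% and 10.3%), only the groups compared 18 (19% and 18.5%), filterByExpr 8 (13.5% and 10.3%), the robust prior 7 (8.61% and 6.11%), the length correction 7 (9.74% and 6.26%) and with the replicate block 8 (10.6% and 7.2%), the block by replicate number within genotype 8 (10.6% and 8.03%), TPM 29 (27 and 2; 12.1% and 3.54%), and leaving out DKO replicate 2 12 (13.7% and 11.9%). Leaving out a library gave 0 (without WT Treg replicate 2 or WT CD4+Foxp3- replicate 3), 1 (without any other WT library) or up to 8 (7 without DKO Treg replicate 2, 8 without DKO CD4+Foxp3- replicate 2). In DKO mLN (5 members) the 1.5-fold minimum left 0, DESeq2 gave 11 (13.5% and 12.4%), only the groups compared 2 (3.74% and 2.59%), filterByExpr 9 (14.2% and 12.5%), the length correction 16 (12 and 4; 10.6% and 7.69%) and with the replicate block 19 (15 and 4; 11.4% and 8.53%), TPM 51 (49 and 2; 23.9% and 2.96%), library totals 26 (24 and 2; 15% and 4.41%), and leaving out DKO replicate 2 9 (1 and 8; 14.4% and 10.8%). Leaving out a library gave 2 (without WT CD4+Foxp3- replicate 1 or 3, or DKO CD4+Foxp3- replicate 3) to 10 (3 without DKO Treg replicate 2, 8 without DKO CD4+Foxp3- replicate 2, 10 without DKO Treg replicate 1). For DKO against WT CD4+Foxp3- in mLN leaving out a library gave 0 to 1 (*Cox8a*, without DKO replicate 1), and DESeq2 gave 1 for the interaction.

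In spleen and pLNs (0 members in each comparison), leaving out both libraries of DKO replicate 1 gave 6 for DKO against WT Treg (9.69% and 9.73%), 1 for DKO against WT CD4+Foxp3- cells (3.12% and 1.74%), 25 for Treg against CD4+Foxp3- in WT (22 and 3; 14.3% and 15.2%) and 17 in DKO (14 and 3; 11.1% and 11.6%). The WT cell types fitted alone gave 25 (22 and 3; 15.4% and 16.4%). Leaving out a library gave 0 to 18 for DKO against WT Treg (3 without DKO CD4+Foxp3- replicate 1 or 2, 18 without DKO Treg replicate 2), 0 to 2 for DKO against WT CD4+Foxp3- cells (2 without DKO CD4+Foxp3- replicate 2), 0 to 0 for Treg against CD4+Foxp3- in WT and 0 to 1 in DKO (1 without DKO Treg replicate 2 or DKO CD4+Foxp3- replicate 1). The replicate block over all groups gave 6, 0, 5, 5 and 0 members in the 5 comparisons of mLN and 0 in each of spleen and pLNs, so it changed no count by over 1.5 times. Without *Atp5s*, *Atp5sl* and *Cox7a2l* the mLN counts were 5, 0, 3, 4 and 0. The causes of these shifts were not tested. The 5 genes under 10 CPM had low counts, and whether depth limited them was not tested.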

Other observations

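A pair of genes next to the respiratory chain, picked because they passed in both tables, differed between the cell types of WT mice. No other gene of the citric acid cycle list or the ATP carrier list passed in WT by edgeR. *Idh2*, the NADP-dependent isocitrate dehydrogenase of mitochondria, was lower in Treg, at 36.0 ± 1.52 CPM against 76.2 ± 4.10 in mLN (SD, n = 3; log2 difference -1.08, adjusted p = 0.000192, edgeR) and at 33.2 ± 3.30 against 66.3 ± 6.41 CPM in spleen and pLNs (SD, n = 2; -0.996, adjusted p = 0.0139, edgeR). *Atpif1*, the inhibitor of ATP synthase, was higher in Treg, at 29.6 ± 3.25 against 16.5 ± 2.70 CPM in mLN (0.83, adjusted p = 0.0175) and at 41.05 ± 0.963 against 23.9 ± 1.58 CPM in spleen and pLNs (0.78, adjusted p = 0.0287). Both genes also passed in the same direction between the cell types of DKO mice in both tables. In spleen and pLNs the calls were fragile. The WT calls of both were lost without any 1 of the 4 WT libraries, the DKO call of the citric acid cycle list (*Idh2*) in 7 of 8 settings that left out a library, all but the omission of DKO CD4+Foxp3- replicate 1, and that of the carrier list (*Atpif1*) without either DKO Treg library. In mLN the carrier list had 0 passing genes in WT without WT Treg replicate 1 or 2 or WT CD4+Foxp3- replicate 1 or 3, and in DKO without DKO Treg replicate 2 or DKO CD4+Foxp3- replicate 1.

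*Atp5j* stood at very different levels in the tables. Over all libraries its mean was 12.1 CPM in spleen and pLNs and 114 CPM in mLN, a ratio of 9.41, whereas the other members at 10 CPM or more in either table had ratios from 0.480 to 1.22. Its length, read from counts and TPM, was 0.267 of the median gene in the spleen and pLN table and 0.306 in the mLN table. Whether the gene model differed between the tables was not tested, and *Atp5j* was chosen after its values were seen.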
